A study of Drosophila melanogaster with 34 samples.

Results

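Larvae of Drosophila melanogaster populations kept on ethanol medium were compared with larvae of control populations after both had hatched from eggs soaked in water, so the comparison concerns expression without ethanol in the soak. It used 12 of the 34 arrays of the series: every water-exposed array of the ethanol regime (6 arrays, populations E1 and E2) and of the control regime (6 arrays, populations R1 and R2). All populations descend from 1 outbred base population and had been selected for more than 300 generations. E flies laid in vials of medium with 12% ethanol, R flies in vials of plain cornmeal, molasses and agar medium, and the variable regime (M1 and M2) in vials of both kinds. Flies of every population spent at least a pair of generations on standard medium before egg laying. Eggs lay for 15 hours under distilled water, or for the ethanol-exposed arrays under 18% ethanol that came to about 12% with the laying medium. Each array holds RNA of 50 to 200 pooled, newly hatched first-instar larvae, with 3 arrays per population, extracted on days numbered 1, 2 and 5. The labels name no mutant allele or transgene. Each regime is represented by 2 populations, and with so few, drift within populations and selection cannot be told apart for a single gene.

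Ethanol in fruit fly larvae is a food as well as a poison. Alcohol dehydrogenase (Adh) oxidises it to acetaldehyde, which Adh itself and aldehyde dehydrogenase turn into acetate, and acetyl-CoA synthase (AcCoAS) passes the acetate to the citric acid cycle or to fat. The oxidation loads the cell with NADH. Cytosolic glycerol-3-phosphate dehydrogenase (Gpdh1) uses NADH to make the glycerol backbone of lipids, and malic enzyme (Men) supplies NADPH for fatty acid synthesis. Detoxifying enzymes such as cytochrome P450s, glutathione S-transferases and UDP-glycosyltransferases act on many foreign compounds, and newly hatched larvae begin to feed with a gut rich in serine proteases and carbohydrases.

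Expression is given on a log2 scale for each probe set, with array medians between 3.89 and 4.0 on the 12 arrays and 9273 to 9387 of 18769 probe sets at 4 or more. Correlations between these arrays ran from 0.991 to 0.998, and no pair held identical values. Nothing says that the arrays of a population came from separate cultures, so a spread between them may be technical. The number of arrays and, above all, of populations limits the precision. In RNA of whole larvae, fewer cells of a type and less RNA per cell cannot be told apart.

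The labels of the E and M populations did not hold together across days. A profile of each population was made from the 200 probe sets that best separated populations on the other days, and each array was correlated with all 6 profiles. Before this, the mean of the R1 and R2 arrays of the same day and exposure was subtracted from each array. On days 1 and 2, 11 of 11 arrays each were most like the population on their label. On day 5 this held for 4 of 12, all of them R arrays. The subtraction makes R1 and R2 mirror images of each other, so the matches of R1 and R2 arrays are not separate results. The 4 water-exposed arrays of day 5 labelled E1, E2, M1 or M2 correlated at 0.51 to 0.75 with the labelled population and at 0.83 to 0.89 with the population of the same number in the other of these regimes (E1 with M1, E2 with M2). For the 4 ethanol-exposed arrays the ranges were 0.54 to 0.73 and 0.83 to 0.93. These correlations are across probe sets chosen to differ between populations, and arrays of 1 day and exposure share the R arrays subtracted from them. The arrays cannot tell whether the labels of day 5 or those of days 1 and 2 are the wrong ones. Values below are for arrays as labelled, and the counts, and the genes whose call depends on it, are also given without day 5 or with E and M labels of day 5 interchanged.

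**Figure D1:**
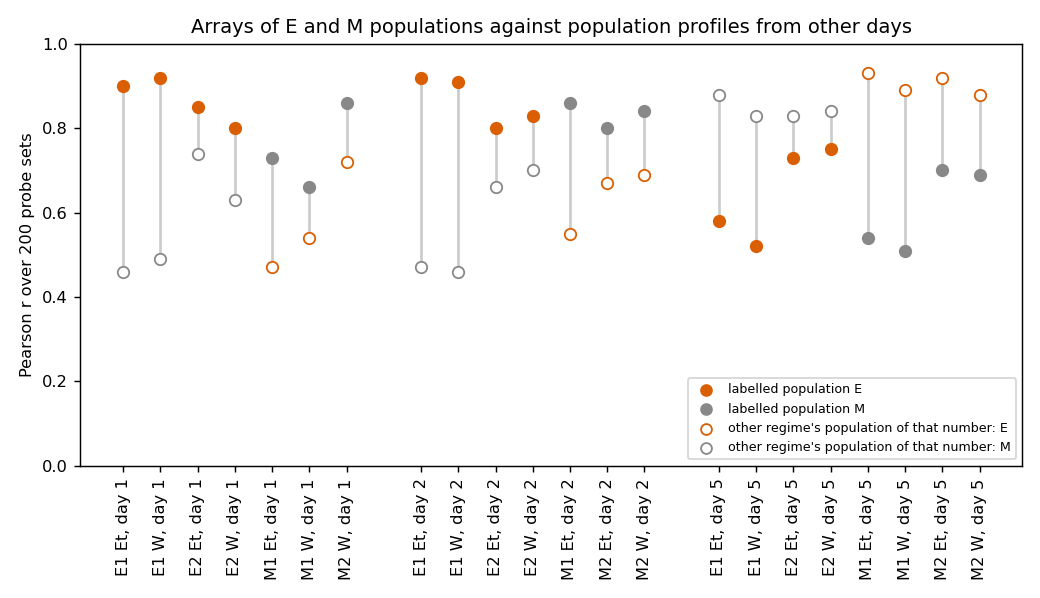
Pearson correlation (vertical axis) of each array labelled E or M (W water, Et ethanol) with the profile of the labelled population (filled) and of the same-numbered population of the other regime (open), the profiles made from other days. On days 1 and 2 the filled points lie higher, and on day 5 the open points lie higher in all 8 arrays.

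As labelled, no probe set passed with population as a random block or with population means as the only values. In the limma fit with day as a factor and population as a random block, 0 of 9418 tested probe sets (0%) reached an adjusted p of 0.05, the smallest being 0.0796, while 755 had an unadjusted p under 0.05. This fit allows for shared populations only through 1 correlation, 0.164, for all probe sets, and on simulated data it made more false calls than nominal. With the 4 population means as the only values, which alone takes populations as the replicates, limma again called 0 (0%). The smallest adjusted p was then 0.896, with 454 under an unadjusted 0.05. When the 12 arrays were counted as the replicates, which understates the error because 3 arrays share a population, limma called 32 probe sets (0.34%) with both E populations on the same side of both R populations, 14 higher and 18 lower in E. The median absolute difference over all tested probe sets was 0.10. Both E populations lay above both R populations in 1590 probe sets and below them in 1620, together 34.1% of those tested, which is the background for the counts of separated list members below, and 31 of these differed by more than 1 on the log2 scale.

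The label question changed these counts. With the day 5 labels interchanged, the fit with the population block called 15 probe sets (0.159%), 1 higher and 14 lower in E, and the fit on arrays called 70 (0.743%), 23 higher and 47 lower. With population means as the only values, 0 were called after the interchange as well. With day 5 left out, both fits called 0, with 643 and 929 probe sets under an unadjusted 0.05. Of the 32 called on arrays as labelled, 24 (75.0%) were among the 70 called after the interchange, which is 34.3% of the 70. What follows therefore describes leading genes, with the fit in which each passed or did not.

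The 24 genes described next had the smallest p-values among genes with both E populations on the same side of both R populations. None passed with the population block (limma adjusted p between 0.0796 and 0.142), and 23 passed with arrays as replicates, all but CG8665. In E, 11 were higher and 13 lower, a split that says nothing beyond the choice. In 17 of the 24 no E array overlapped an R array, and within each of the 3 days both E arrays lay on the same side of both R arrays in 24, against 3.34% of all tested probe sets, as a description of genes chosen on these arrays. With the day 5 labels interchanged 19 of the 24 passed on arrays, CG8665 among them (limma adjusted p = 0.0135), and 5 that had passed as labelled did not: Gpdh1 (0.0630), CG13102 (0.0566), CG14820 (0.0611), CG3376 (0.115) and unc-13-4A (0.138), the last with a difference of -0.49 in place of -0.64.

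The genes lower in the ethanol populations included the largest difference. CG6738 had values of 7.21, 8.88 and 9.71 (lowest, median and highest of 6 E arrays) against 10.84, 11.10 and 11.30 in R. All E arrays lay below all R arrays, and the difference was -2.30 ± 0.37 (SE), 4.92-fold lower (limma adjusted p = 0.0796). Lime, named for linking immunity and metabolism, read 6.15, 6.28 and 6.99 in E and 7.11, 7.71 and 8.14 in R. Its groups did not overlap, with a difference of -1.20 ± 0.20, 2.30-fold, and with the day 5 labels interchanged it passed at -1.38 (limma adjusted p = 0.0111).

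CG14408 had the smallest p-value and a modest difference. Its arrays ran over 8.37, 8.61 and 8.73 in E and 9.10, 9.21 and 9.43 in R. The difference of -0.65 ± 0.09 was that of its brightest probe set, and the other 2 probe sets of the gene gave -0.12 and 0.10, so the probe sets disagreed. CG10560 read 9.98, 10.20 and 10.41 in E against 10.55, 10.65 and 11.02 in R, again without overlap and at -0.53 ± 0.08. CG8665, which encodes a formyltetrahydrofolate dehydrogenase of one-carbon metabolism, had 6.95, 7.44 and 8.09 in E and 8.02, 8.47 and 9.08 in R. Its groups overlapped, with E2 at 8.09 and 8.06 on days 1 and 2 and R1 and R2 at 8.08 and 8.02 on day 5. The difference was -1.02 ± 0.21. CG33459 lay near the floor of the scale in E, at 2.64, 3.27 and 4.26, and at 4.27, 4.65 and 4.97 in R. Its difference of -1.31 ± 0.28 therefore depends on the background correction. All R arrays lay above the detection level of 4, and in E only the highest value did. CG33459 was thus tested because of its R values, as the filter asked for at least 4 on at least 5 arrays. It stays in the counts given for the leading genes.

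Of the remaining genes lower in E, Cyp6d5, a cytochrome P450, differed by -0.38 ± 0.08 and Vha100-4, a subunit of the proton pump that acidifies compartments, by -0.56 ± 0.11. The proton pump gene read 9.52, 9.71 and 9.88 in E and 9.96, 10.29 and 10.45 in R, with no overlap. CG1304, a neighbour of the serine protease gene Ser6 in the gene order, was lower by 0.36 on the log2 scale at a level above 12 in both regimes. The vesicle exocytosis gene unc-13-4A, CG14820, CG5084 and CG13102 differed by -0.64, -0.67, -0.53 and -0.32.

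Genes higher in the ethanol populations were led in size by lectin-24A, a C-type lectin gene, and Ugt49C1, a UDP-glycosyltransferase gene. lectin-24A read 5.95, 6.74 and 8.12 in E and 4.33, 5.46 and 6.25 in R. The groups overlapped over days but not within a day, and E was higher by 1.53 ± 0.27, 2.89-fold (limma adjusted p = 0.0947). Ugt49C1 had 7.46, 7.78 and 8.45 in E against 5.81, 6.36 and 7.0 in R. Its groups stood apart by 1.52 ± 0.25, 2.86-fold, and with the population block it was the only gene higher in E that passed after the interchange, at 1.59 (limma adjusted p = 0.0310).

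QC, the glutaminyl cyclase that closes N-terminal glutamine into a ring, read 10.01, 10.20 and 10.63 in E and 9.24, 9.53 and 9.85 in R. The difference was 0.72 ± 0.12 without overlap. The elongation factor gene eEF1alpha2 had 8.67, 9.05 and 9.54 against 7.84, 8.36 and 8.67, touching at 8.67, with E higher by 0.76 ± 0.14. Phf5a, a component of the splicing machinery, was higher by 0.51 ± 0.09, and CG3376, which encodes a sphingomyelinase, by 0.79 ± 0.17. CG13862, CG9147 and CG34165 were higher by 0.69, 0.64 and 0.63.

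A pair of leading genes belongs to the enzymes that handle the products of ethanol oxidation. Men read 12.61, 12.76 and 13.11 in E and 12.19, 12.51 and 12.66 in R. The groups overlapped slightly and the difference was 0.35 ± 0.07, 1.28-fold (limma adjusted p = 0.105; 0.0286 with arrays as replicates). Gpdh1 had 12.40, 12.66 and 12.77 against 12.12, 12.24 and 12.32, with no overlap and a difference of 0.39 ± 0.08. All 4 of its probe sets were higher in E, by 0.39, 0.22, 0.30 and 0.29.

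**Figure D2:**
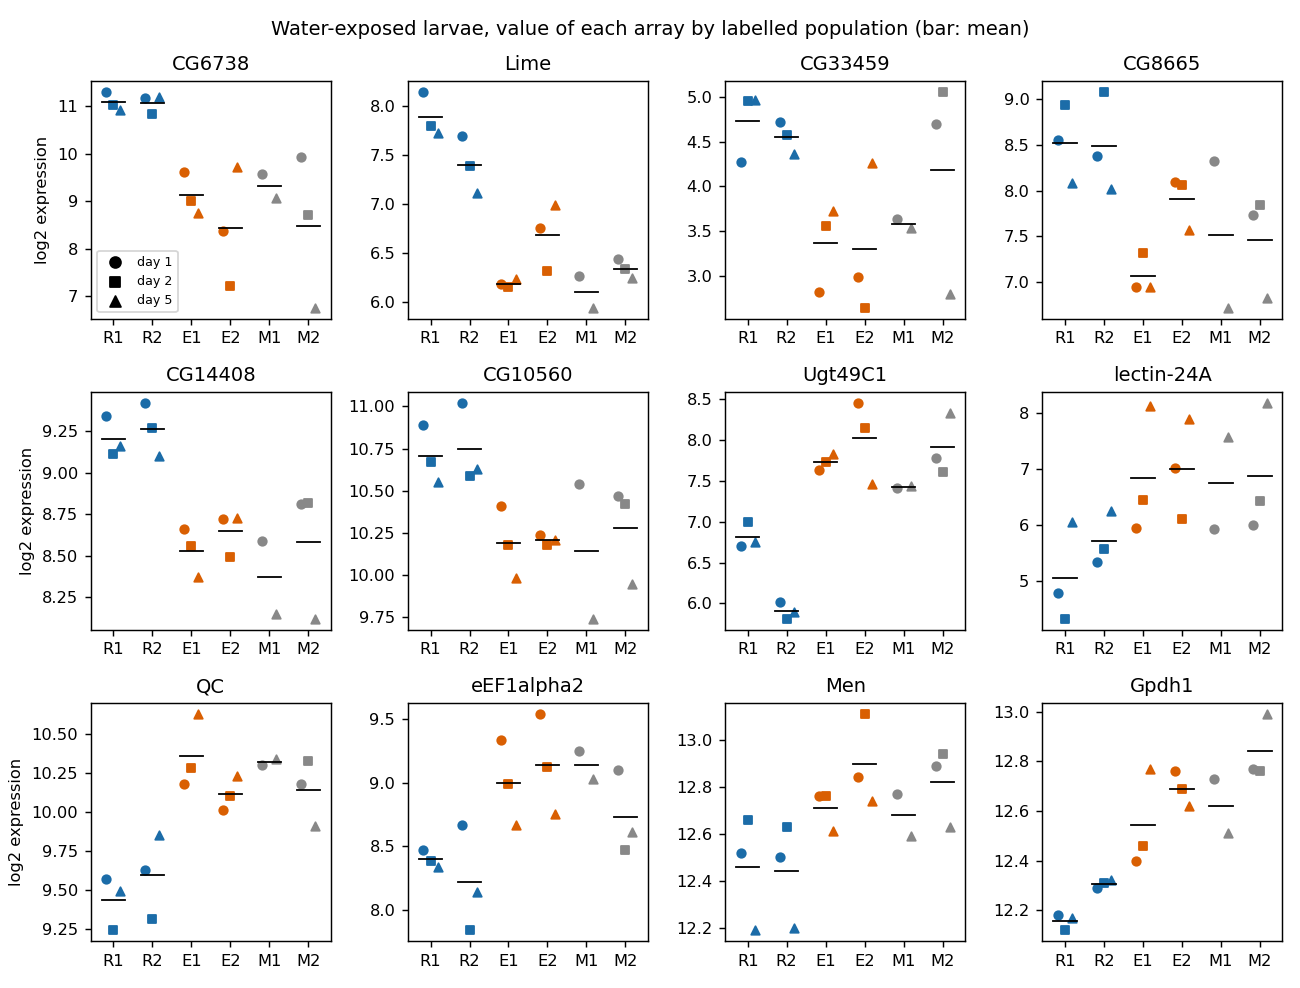
Log2 expression (vertical axis) on each water-exposed array for 12 of the 24 leading genes, by labelled population, with the symbol giving the day and the bar the mean. E arrays lie below R arrays for CG6738 and Lime and above them for Ugt49C1 and QC.

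The enzymes at the start of the ethanol pathway showed small differences. Adh could not be read on its own, since the 2 probe sets that cover it are annotated to Adhr as well. The brighter had 13.67, 13.78 and 13.83 in E and 13.58, 13.70 and 13.75 in R near the top of the scale. Its difference was 0.08 ± 0.05 (limma adjusted p = 0.713), and that of the dimmer probe set was 0.17 ± 0.12. AcCoAS read 11.44, 11.69 and 12.11 in E against 11.43, 11.85 and 11.97 in R, almost the same range, with a difference of -0.03 ± 0.10. No tested probe set named Aldh itself. Aldh-III, another aldehyde dehydrogenase gene, differed by 0.11 ± 0.12 (limma adjusted p = 0.887).

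The list of ethanol and acetaldehyde oxidation enzymes, which includes the redox enzymes above, had 13 tested members and a median difference of 0.08. Both E populations lay above both R populations for 4 members and below them for 0. Men and Gpdh1 were the 2 that passed with arrays as replicates as labelled, and after the interchange only Men did. Over all 7830 tested genes the same counts were 1368 above and 1308 below with a median of 0.00. The highest value in the list, 1.23 ± 0.71 for CG31075, did not pass.

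Digestive serine proteases had 25 tested members, 13 with both E populations below and 0 with both above, at a median of -0.22. With arrays as replicates and the day 5 labels interchanged, 0 passed as higher and 2 as lower. As labelled, 0 passed on arrays as higher and 1 as lower. That gene, Ser6, read 10.64, 10.86 and 11.43 in E and 11.23, 11.35 and 11.56 in R, a difference of -0.46 ± 0.10 with overlapping groups (limma adjusted p = 0.160 with the population block and 0.0401 on arrays). Jon66Ci, of the Jonah family of gut proteases, differed by -1.21 ± 0.28 and the trypsin gene epsilonTry by -0.30 ± 0.09. In the ethanol-exposed arrays the list's median was -0.06. There the R2 array of day 1 was the lowest of the 6 R arrays for 19 of the 25 genes, with Ser6 at 9.63 against 11.35 to 11.70 on the other R arrays. Without it the median was -0.20, and the difference of Ser6 went from -0.29 ± 0.26 to -0.56 ± 0.11 and that of Jon66Ci from -0.13 ± 0.33 to -0.29 ± 0.30.

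Lipolysis and fatty acid oxidation genes had a median of 0.20 over 14 tested members, with 6 above and 0 below, and none passed in either fit. Lip4, a lipase gene, had 9.03, 9.25 and 9.38 in E and 8.14, 8.67 and 9.38 in R, overlapping at the top, at 0.54 ± 0.17. Arc42 and scu, mitochondrial dehydrogenases, differed by 0.45 ± 0.17 and 0.26 ± 0.11. Fatty acid and lipid synthesis and storage genes had a median of -0.08 over 19 members, with 0 above and 2 below. The lipid droplet gene Lsd-2 read -0.17 ± 0.06 in E relative to R.

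Purine and one-carbon genes had 16 tested members, 6 above and 0 below, at a median of 0.09. The purine synthesis gene Gart was higher by 0.57 ± 0.18. Prat2, the first committed enzyme of that pathway, had the largest difference in the list and almost all of it came from 1 population. In E1 its arrays read 8.38, 8.27 and 7.07 on days 1, 2 and 5, in E2 3.64, 3.46 and 5.76, in R1 2.63, 2.36 and 5.61, and in R2 3.72, 3.51 and 5.28. The 3 E1 arrays stood above all others, and E2 overlapped the controls. The difference of 2.25 ± 0.92 did not pass (limma adjusted p = 0.560), and in ethanol-exposed arrays it was -0.21 ± 0.55.

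The detoxifying families had members on both sides. Cytochrome P450 genes had 60 tested members with 6 above, 11 below and a median of -0.08, and Cyp6d5 alone passed on arrays as labelled. After the interchange 1 member passed there as higher and 2 as lower, against 22 and 41 of all 7830 tested genes. UDP-glycosyltransferases had 5 above and 6 below of 25, and glutathione S-transferases 3 above and 4 below of 32. In the last family GstE1 read 10.98, 11.15 and 11.33 in E and 10.18, 10.71 and 10.82 in R, higher by 0.51 ± 0.11 without overlap (limma adjusted p = 0.0470 with arrays as replicates). Cyp4p3 was higher by 0.54 ± 0.13 and Cyp6a23 differed by -0.54 ± 0.14. Of the digestive carbohydrases, the maltase gene Mal-A8 had 4.73, 5.05 and 5.44 in E against 3.30, 4.08 and 4.53 in R, without overlap. Since R lay around the detection level of 4, its difference of 1.11 ± 0.24 depends on the background correction. As labelled it did not pass on arrays (limma adjusted p = 0.0644). After the interchange of day 5 labels 1 carbohydrase gene passed on arrays, as higher.

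Immune effector and recognition genes had 1 above and 3 below of 19. The lysozyme gene LysP differed by -1.20 ± 0.29 and PGRP-SC2, an amidase that degrades bacterial peptidoglycan, by 0.96 ± 0.33 without separating the populations, as E2 (11.41) lay below R1 (11.43). LysP read 3.61 to 4.86 on the E arrays, around the detection level of 4, so its difference depends on the background correction. Cuticle protein genes had 8 above and 11 below of 56, oxidative phosphorylation genes 10 and 9 of 57, cytosolic ribosomal proteins 2 and 5 of 37, and mitochondrial ribosomal proteins 22 and 5 of 69 at a median of 0.03. As labelled, no member of these 5 lists passed on arrays. After the interchange of day 5 labels 1 immune gene passed there, as lower. With the day 5 labels interchanged the median of the mitochondrial ribosomal proteins was 0.00 and that of the serine proteases stayed at -0.22.

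**Figure D3:**
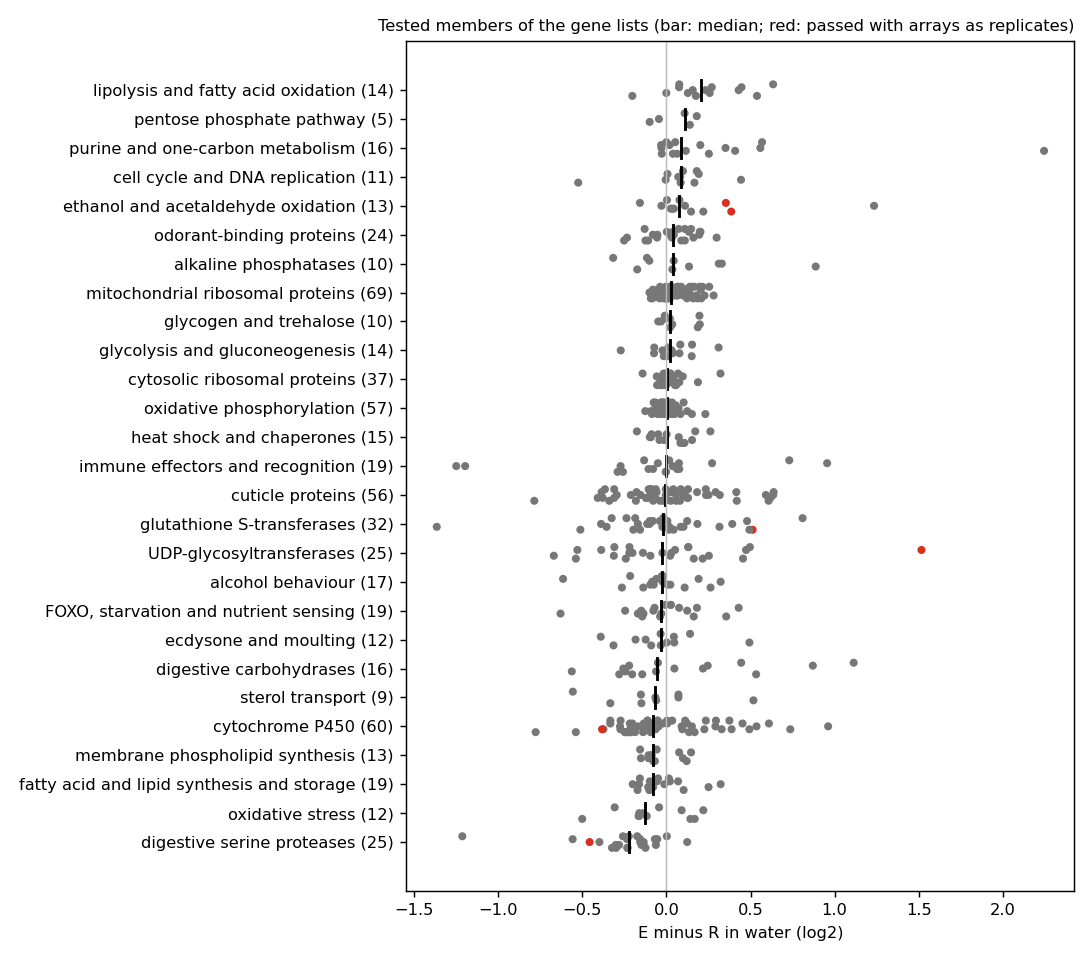
Difference between ethanol and control populations in water (horizontal axis, log2) for each tested member of the gene lists with at least 5 tested genes, number in brackets, bar at the median, red where the gene passed with arrays as replicates. Digestive serine proteases have a median of -0.22 and lipolysis and fatty acid oxidation genes 0.20.

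Markers of larval tissues were read for sample make-up, and they do not show that it was equal. Haemocyte markers had a level, as log2 of their sum, between 11.56 and 11.86 in E and between 11.42 and 11.86 in R, with 10 of 11 tested and both E populations above both R populations in 3 and below in 1. Their median difference was 0.18, and 3 of the 10 had an unadjusted limma p under 0.05, against 638 of all 7830 tested genes. Muscle markers had 15.17 to 15.39 in E and 15.25 to 15.40 in R, with 8 of 12 tested. Neuron markers had 11.70 to 12.48 and 11.92 to 12.59, with 9 of 12, and trachea and epidermis markers 12.36 to 12.59 and 12.18 to 12.47. A sum is set mostly by its brightest members. Of the salivary gland and midgut markers 3 of 10 were tested, Vha100-4, Jon65Ai and alphaTry. Vha100-4 is among the leading genes, and Jon65Ai and alphaTry belong to the serine protease list above. These markers therefore give no separate reading of gut content. Their summed levels were 12.53 to 13.08 in E and 12.85 to 13.22 in R. Both E populations were below both R populations in 2 of these 3, Vha100-4 among them. The part of gut content in the lower values of serine proteases was not tested. The late-larval fat body genes Lsp1alpha, Lsp1beta, Lsp2, Fbp1 and Fbp2 had no tested probe set, nor had the egg shell genes Cp36 and Cp38.

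After the interchange of day 5 labels, genes outside the 24 also passed with the population block. They were chosen for that pass, so their larger differences after the interchange follow in part from the choice. Their values cannot say which labels are right. CG13325 read 5.08 and 4.10 on days 1 and 2 in arrays labelled E1 and 7.91 on day 5, while the day 5 array labelled M1 read 6.4. In R all 6 of its arrays lay between 6.80 and 7.93. As labelled the difference was -1.55 ± 0.41 (limma adjusted p = 0.301) and after the interchange -1.99 (limma adjusted p = 0.0220). CG16995 read 3.48 and 4.03 in E1 on days 1 and 2 and 5.84 on day 5, against 3.37 in the day 5 array labelled M1. Its difference was -1.39 ± 0.51 as labelled and -1.95 after the interchange. The E arrays of days 1 and 2 read 3.19 to 4.03, around the detection level of 4. Both differences therefore depend on the background correction. CG31041 moved from -1.16 to -1.40. Ser6, CG14408, CG10560, CG6738, CG1304, CG5084, CG8665 and CG33459 passed after the interchange too, at -0.50, -0.78, -0.61, -2.74, -0.38, -0.68, -1.18 and -1.59.

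As labelled, the counts between sister populations lay within the range of those between regimes, and with other day 5 labels they lay partly outside it. The limma fit of the arrays as labelled called 346 probe sets (3.67%) between E1 and E2 and 192 (2.04%) between R1 and R2. Between regimes it called 177 (1.88%) for E1 and R1, 414 (4.4%) for E1 and R2, 216 (2.29%) for E2 and R1 and 116 (1.23%) for E2 and R2. With day 5 interchanged, the sister pairs had 857 and 316 and the pairs between regimes 371 to 803. Without day 5, the sister pairs had 545 and 104 and the others 140 to 462. Each pair compares 3 arrays with 3, and pairs share populations.

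**Figure D4:**
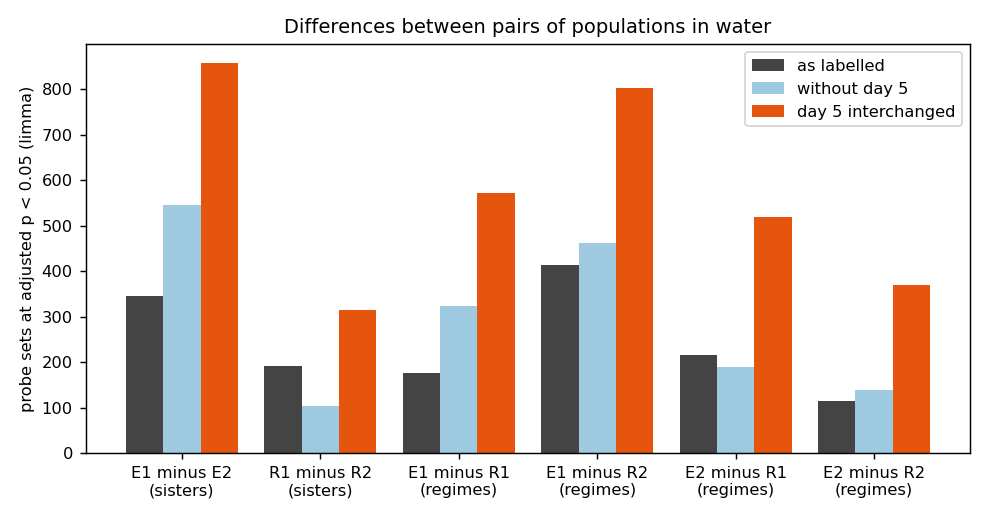
Number of probe sets at a limma adjusted p under 0.05 (vertical axis) for each pair of water-exposed populations, as labelled, without day 5 and with day 5 labels interchanged. The pair E1 and E2, both of the ethanol regime, has 346 as labelled and 857 after the interchange.

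The ethanol-exposed arrays of the same populations were not used to choose the genes. There, limma called 9 probe sets (0.0956%) with the population block, 4 higher and 5 lower in E, and 50 (0.531%) with arrays as replicates. With day 5 interchanged the block fit called 55 (0.584%). Of the 24 leading genes, 24 had the same sign of difference in ethanol, against 71.0% of all tested probe sets, and 21 again had both E populations on the same side of both R populations. In 18 the unadjusted limma p was under 0.05, against 963 of all 9418 tested probe sets with that p and the sign they had in water. Of the 32 probe sets called on water arrays, 27 (84.4%) were separated the same way in ethanol, against 30.4% of all tested, and the median ratio of the ethanol to the water difference was 0.78. These arrays come from the same 4 populations, so they repeat the measurement and not the selection.

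Lime and Phf5a passed with the population block in ethanol. Lime differed by -1.38 ± 0.19 there (limma adjusted p = 0.0336) and Phf5a by 0.54 ± 0.09 (limma adjusted p = 0.0402). CG6738 differed by -1.89 ± 0.52, CG14408 by -0.69 ± 0.14, Ugt49C1 by 1.33 ± 0.28, lectin-24A by 1.31 ± 0.26 and QC by 0.54 ± 0.11 in ethanol. CG1304, CG13102 and CG34165 had the smallest differences in ethanol, -0.08, -0.07 and 0.03. The R2 array of day 1 set much of the first of these, at 10.69 for CG1304 against 12.27 to 12.52 on the other R arrays. Without it CG1304 differed by -0.33 ± 0.13, CG13102 by -0.17 ± 0.12 and CG34165 by 0.04 ± 0.16, Lime and Phf5a still passed, and all 24 leading genes had the sign and the separation of populations that they had in water.

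Whether the difference between regimes depended on exposure was tested as an interaction over the 24 E and R arrays. limma called 0 of 9418 (0%), with 360 under an unadjusted 0.05 and a smallest adjusted p of 0.283. Among the 24 leading genes CG34165 and CG3376 had an unadjusted p under 0.05, with ethanol minus water differences of -0.61 and -0.47. A p that misses the threshold does not show that the differences were equal.

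**Figure D5:**
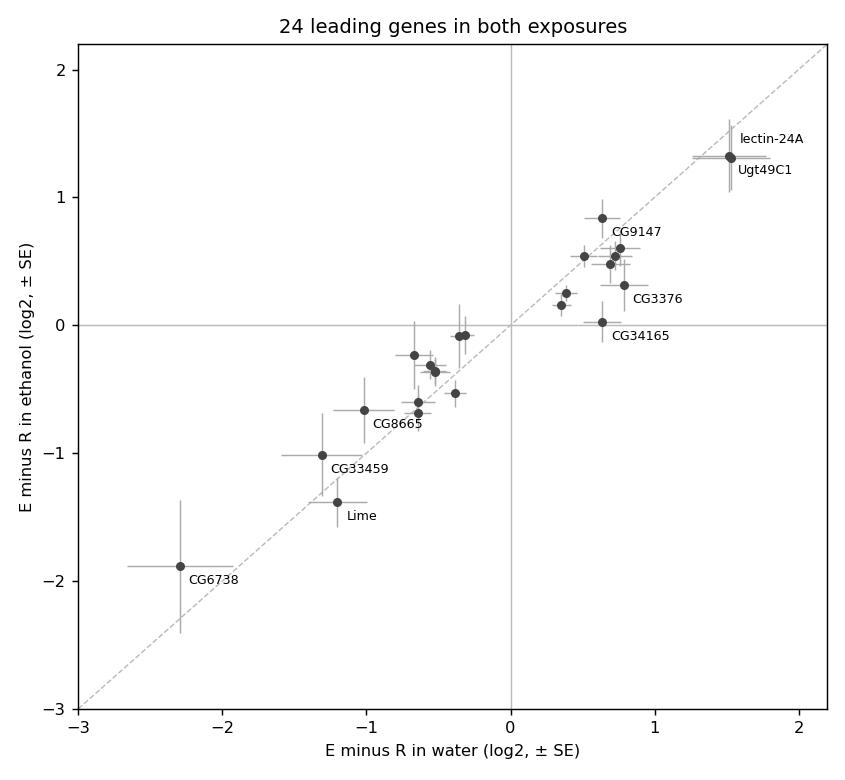
Difference between ethanol and control populations after ethanol (vertical axis) against that in water (horizontal axis), log2 with limma standard errors, for the 24 leading genes; the dashed line marks equal values. All 24 have the same sign in both exposures, and CG34165 lies near 0 in ethanol at 0.03.

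The M populations, which met ethanol in part of their vials, are set beside the others as values only, since their comparison with R would share the R arrays and since their labels are in doubt. For CG6738, M1 and M2 averaged 9.31 and 8.47 in water beside 9.12 and 8.43 in E1 and E2 and 11.08 and 11.07 in R1 and R2. For Lime they averaged 6.10 and 6.34 beside 6.19 and 6.69 in E and 7.88 and 7.39 in R. For Ugt49C1 the M means were 7.42 and 7.91, the E means 7.73 and 8.02 and the R means 6.82 and 5.90. For these 3 genes the M means lay nearer to the E means than to the R means. M1 had no water array of day 2, so its means are over days 1 and 5. If day 5 labels were interchanged, E and M means hold arrays of each other, which brings them nearer. On days 1 and 2 alone, M arrays read 8.71 to 9.94 for CG6738 against 10.84 to 11.30 in R. For Lime they read 6.26 to 6.44 against 7.38 to 8.14, and for Ugt49C1 7.41 to 7.78 against 5.81 to 7.0. Gpdh1 had M means of 12.62 and 12.84 beside 12.54 and 12.69 in E and 12.16 and 12.31 in R. CG3376 had 8.36 in M1 and 7.74 in M2, E means of 8.41 and 8.34 and R means of 7.82 and 7.36, so that M2 lay between the R populations.

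The direction of the difference between E and R in water was also set beside the response to ethanol itself. That response was measured in the M arrays, which the comparison of E and R did not use. Of the 32 probe sets called on arrays, 18 (56.2%) had a difference in E of the same sign as the ethanol minus water difference in M, against 53.3% of all tested probe sets. Without day 5 in the M arrays the shares were 43.8% and 41.3%. With the day 5 labels interchanged the called sets are other ones: 38 of the 70 called on arrays (54.3%) and 10 of the 15 called with the population block (66.7%) had the sign of the response in M, against 48.7% of all tested. Apart from the small set of 15, the shares lay near those of all probe sets.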

How the data were processed

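The authors deposited log2 expression values per probe set, which the submitters' processing notes tie to GCRMA and affy without naming a version. GCRMA corrects probes for background by base content, so low values depend on that model. Regime, population, exposure and day came from the labels, which state that each extraction block held 1 sample per population and exposure. The day number therefore pairs samples: deviations of water arrays of the same day from their population means correlated on average at 0.387, 0.18 and 0.41. Between days the average was -0.242, which is partly built in, since the deviations of a population cancel over its days.

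Probe sets with a value of at least 4 on at least 5 of the 12 arrays were tested, 9418 in all, of which 8336 name 1 of 7830 genes. Of 18769 probe sets, 13647 list 1 gene in the platform annotation, 402 several and 4720 are unlisted, and 13544 names were updated through a RefSeq gene table. No sequences are used here, and positions enter only as the order of genes, in which neighbours up to 5 steps apart were sought.

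The fits used limma 3.58.1 in R 4.3.3 with an intensity trend, day as a factor and population as a random block (estimated correlation 0.164), two-sided, with Benjamini-Hochberg adjustment at 0.05 over all tested probe sets. A call also required both E population means on the same side of both R means. Errors marked ± are standard errors of this fit. Tested on simulated data, the fits with the population block and with arrays as replicates made more false calls than nominal where populations differed as measured, and the fit on population means did not.

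A gene is represented by its brightest probe set. Named were the 24 genes with the smallest p and separated populations, none having passed, up to 3 genes per list with the smallest p, AcCoAS, and, after their values were seen, genes called in an alternative and single genes whose value was singled out. The comparison, the gene lists and the tests were chosen with earlier results of these data known.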

Additional observations from a re-analysis of the deposited data

Results flagged for a closer look

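Among 144 sets of 6 arrays checked for a value far from the others, 1 was found, where chance alone gives about 1 in 20. Gnmt, which encodes glycine N-methyltransferase, read 11.76 on the array labelled E2 of day 2 in water, with the nearest other E array at 12.72 and the highest at 13.15. The day 2 arrays of R1, R2 and M2 in water read lower still, at 11.56, 11.43 and 11.73.

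With the day 5 labels interchanged, the difference between regimes depended on exposure in 3 genes by the interaction of the limma fit. The ethanol minus water difference between E and R was 2.58 for Alp8, an alkaline phosphatase gene (limma adjusted p = 0.0118), 2.28 for CG10081 (limma adjusted p = 0.0118) and 1.23 for Orct2, an organic cation transporter gene (limma adjusted p = 0.00604). In water these genes differed by 0.09, 0.35 and -0.01 and in ethanol by 2.67, 2.63 and 1.21. As labelled, limma called no interaction.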

How the results depend on the processing

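For the water comparison with the population block, 0 calls as labelled became 13 without the filter on low values, 8 with no replicate block (no day term), 32 with arrays as replicates, 20 with array weights, 16 when all 6 populations shared the spread, 1 on day 5 alone and 15 with day 5 interchanged. Without population E1, E2, R1 or R2 the counts were 79, 92, 6 and 1, each of which leaves a regime with 1 population. Leaving out a day or an array gave 0 to 3, with 1 without the E1 array of day 2 and 3 without the E2 array of day 5. Alternatives chosen after seeing the data gave 22 with days 1 and 2 interchanged instead, 37 for that with arrays as replicates, 70 with day 5 interchanged on arrays and 0 on arrays without day 5. The other alternatives, among them quantile normalization, median centring and robust moderation, gave 0. By population means, leaving out a day gave 0 to 1.

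In ethanol, 9 calls became 33 with no replicate block, 50 on arrays, 55 and 404 with day 5 interchanged with the block and on arrays, 0 with days 1 and 2 interchanged, 0 to 15 with a day or an array left out, and 15, 37, 34 and 56 without E1, E2, R1 and R2. Leaving out 1 array, an alternative chosen after seeing the data, gave 0 without R1 or E2 of day 1, E1 or R2 of day 2 or R2 of day 5, 3 without R1 or E2 of day 2, 4 without E1 of day 1 and 15 without E2 of day 5. The interaction had 0 to 3 calls with a day left out (3 without day 5), 1 without R2 and 3 with day 5 interchanged.

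For the pairs E1 and E2, E1 and R1, E1 and R2, E2 and R1, E2 and R2, and R1 and R2, no replicate block gave 77, 77, 177, 66, 34 and 88 calls and the interchange 857, 572, 803, 520, 371 and 316. Leaving out a day gave 13 to 545, 5 to 323, 46 to 462, 5 to 191, 1 to 140 and 17 to 104 for these pairs. All the lows came without day 1 except 1 for E2 and R2, which came without day 2.

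Over 72 named genes and their alternatives, 2362 of 2515 values kept direction and side of the threshold, 142 passed where the value as labelled did not, and 11 turned sign. CG16995 was 0.19 on day 5 alone. AcCoAS, at -0.03, was 0.002 after quantile normalization, 0.10 and 0.013 without E1 and R1, 0.044 and 0.088 on days 1 and 5 alone, 0.007 with day 5 interchanged, 0.17 with days 1 and 2 interchanged, and between -0.089 and 0.066 with an array or day left out. The causes of these moves were not tested.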

Other observations

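Neighbouring genes were among those that passed on arrays or after the interchange. Ser6 and CG1304 lie next to each other in the gene order, as do Lime and CG12744, while CG9147 and CG9154 are 3 genes apart. Of 7830 tested genes this was looked up only for those that passed, so no share of all genes is given.

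The stress and nutrient genes had values in both directions. Hsp60A, a mitochondrial chaperonin gene, was higher in E by 0.26 ± 0.08, the peroxiredoxin gene Prx3 by 0.14 ± 0.05 and Akh, which encodes adipokinetic hormone, by 0.36 ± 0.11, while S6k, the ribosomal protein S6 kinase gene, differed by -0.15 ± 0.06. None passed in limma with the population block or on arrays.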
